A study of Mus musculus with 32 samples.

Results

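Protein-coding genes whose captured RNA came from at least 500 kb of the mouse genome were examined in RADICL-seq data. The method ligates an RNA to nearby DNA through a bridge adapter inside crosslinked nuclei, so that every ligation product yields a tag from the RNA and a tag from the DNA beside it. A gene was included when its first and last RNA tags, pooled over the 3 mESC 1FA and 3 mOPC 1FA libraries, lay at least 500000 bases apart. This held for 188 protein-coding genes, of which 8 were left out because they belong to 14 named exceptions of the rule. The remaining 180 genes are 1.38% of the 13082 protein-coding genes listed in these 6 libraries, and they held 9.03% of the protein-coding interactions there. The genes were thus chosen by the RNA tag positions of the 1FA libraries, and the spread of their tags is no finding.

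The study used R08, a male mouse embryonic stem cell line (mESC), and Oli-neu, a neural line derived from mouse oligodendrocyte progenitor cells (mOPC). The 32 deposited samples stand for 15 libraries, the replicates, made from batches of cells of different passage. Total libraries were fixed with 1% formaldehyde, as mESC 1FA (3 libraries) and mOPC 1FA (3 libraries), and mESC 2FA (3 libraries) was fixed with 2% formaldehyde. In mESC ActD4 (2 libraries) transcription had been blocked for 4 hours with actinomycin D (5 µg/ml), and the fixative was 1% formaldehyde. In mESC NPM (2 libraries) and mOPC NPM (2 libraries), "non-protein mediated", chromatin fixed with 1% formaldehyde was digested with proteinase K and the crosslinks were reversed before the RNA was ligated. Each cell type is a single line, so a difference between the cell types is a difference between these lines. Comparisons of mESC ActD4 or mESC NPM with mESC 2FA differ in the fixative as well.

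Very long genes consist almost entirely of intron, and RNA polymerase II needs hours to cross them, so that many unfinished transcripts are tied to the gene at any moment. Many of the longest mammalian genes encode adhesion molecules, receptors and channels of neural cells. Actinomycin D binds DNA and blocks transcript elongation, so that few new transcripts form in its presence.

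The libraries held 251802 to 2832717 listed interactions. The fewest were in mESC ActD4 and mESC NPM (251802 to 608994). Only combinations of a transcript with a 25-kb DNA bin that passed the authors' significance test on pooled replicates are listed. The totals are therefore not sequencing depth, a gene listed at 0 may still have been captured, and no upper limit or lower bound on a fold can be given for a listed 0. Replicates of a group share 1 list of pairs, so that their spread, and every p-value below, understates the error. Capture is given as CPM, the listed interactions of a gene per 1000000 listed interactions of the library. The summed capture of 16 stem cell markers was 9583 to 9957 CPM in mESC 1FA and 371 to 434 CPM in mOPC 1FA, where Pou5f1 and Nanog were listed at 0. The summed capture of 13 oligodendrocyte lineage markers was 2269 to 2735 CPM in mOPC 1FA and 26.6 to 59.0 CPM in mESC 1FA. A list of 6 neuron markers reached 1253 to 1475 CPM in mOPC 1FA and 334 to 390 CPM in mESC 1FA. In mOPC 1FA the sum came from Map2 and Syt1, with Rbfox3, Snap25, Tubb3 and Stmn2 at 0. Syt1 is itself 1 of the 180 genes. Astrocyte markers reached 21.7 to 28.02 CPM in mOPC 1FA and 28.9 to 38.1 CPM in mESC 1FA, and markers of endoderm, mesoderm and trophoblast were at 0 and at 48.0 to 187 CPM. The part of other cell types in the results was not tested.

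The spans of the 180 genes ran from 502.6 to 4388.2 kb with a median of 723.9 kb. The 3 genes just inside the bound were Dock1 (502584 bases), Aff2 (505655 bases) and Arhgap6 (508266 bases). The 3 just outside were Dnm3 (495402 bases), Edil3 (491024 bases) and Prkce (489670 bases). The tags reached at least 500 kb in both cell types for 110 genes, in mESC 1FA alone for 38 and in mOPC 1FA alone for 32. The genes lie on 20 chromosomes, with at most 17 on 1 chromosome and 7 on the X chromosome. The number of interactions in the 1FA libraries had a median of 3078.5. It ran from 7 for Thsd7b, a thrombospondin-repeat protein, to 56894 for the predicted gene Gm20388. For 23 genes it was under 100, so that a handful of tags set their span, and for 39 it was at least 10000.

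The annotation gave long gene bodies to nearly all of them. The GENCODE M21 gene was at least 500 kb long for 178 of the 180, and the RefSeq gene for 168. Their longest intron had a median of 246.7 kb, against 64.6 kb for the 1851 protein-coding genes with tags over 100 to 500 kb and 7.25 kb for 11026 genes with tags over less than 100 kb. Their exons were hardly more numerous than those of the middle class, with medians of 18 and 16, and the summed exon length had medians of 5.49 and 4.94 kb. The GC content of the gene body had a median of 40.2%, against 42.9% and 46.7% in the shorter classes. These are descriptions, since length is close to what the rule selects.

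For 5 genes most RNA tags lay inside another protein-coding gene on the same strand, and the assignment of these tags is uncertain. All tags of Gm42416 lay in other genes, 99.7% of them in Gm37013. Of the tags of Iqschfp, 99.9% lay in Schip1. The tags of Gm20388, an annotated transcript that runs across 37 other protein-coding genes, lay in such genes in 84.1% of cases, with 27.1% in Gse1 alone. Agbl4 shared 69.0% of its tags with Bend5, and Arhgap26 shared 66.0% with a second entry of the same name. In Foxp1 the share was 43.3%, all of it in Gm20696.

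By lists of gene roles chosen with earlier results of these data known, 51 of the genes belong to adhesion and the synapse, 23 to enzymes, transport, trafficking and repair, and 20 to kinase, phosphodiesterase and GTPase signalling. A further 19 are in the list of ion channels and transmitter receptors and 14 in that of transcription and chromatin factors. The list of the cytoskeleton and matrix holds 14, and that of RNA-binding proteins 3. The lists are approximate. That of channels also holds Slc9a9, Atp8a2, Nkain2 and Nkain3, and that of transcription factors holds Lrmda. The other 36 are in none of the lists, among them the channel gene Asic2 and the chromatin remodeller gene Chd1. In interactions, adhesion and the synapse came first with 301686, followed by the unlisted genes with 221426 and the transcription and chromatin factors with 172299.

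The 12 genes with the highest mean capture over the 1FA libraries are described in both cell types. These libraries also chose the genes, so that their values there are descriptions. Positions are those of GENCODE M21 on mm10, and the RNA tags of the 180 genes were intronic in 96.4% ± 0.48 of cases in mESC 1FA and 96.7% ± 0.27 in mOPC 1FA (SD, n = 3). Anks1b, a scaffold protein of the postsynaptic density (chromosome 10, 89873509 to 90973300, plus strand), reached 7266, 7982 and 8687 CPM in mOPC 1FA. In mESC 1FA it was captured at 52.1, 96.7 and 103 CPM. Nav3, a neuron navigator that binds microtubules (chromosome 10, 109681259 to 110456204, minus strand), stood at 3173, 3269 and 3209 CPM in mOPC 1FA and at 4.24 to 6.96 CPM in mESC 1FA. Ank2, the adaptor ankyrin-B (chromosome 3, 126921612 to 127499350, minus strand), stood at 2608 to 2813 CPM against 47.9 to 65.6 CPM. Npas3, a transcription factor of the developing brain (chromosome 12, 53248677 to 54072175, plus strand), stood at 2515 to 2809 CPM against 4.94 to 10.2 CPM. For these 4 genes every mOPC 1FA library lay far above every mESC 1FA library.

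In contrast, Etl4 (chromosome 2, 19909780 to 20810713, plus strand) was captured mostly in the stem cells. It stood at 3312, 2543 and 2840 CPM in mESC 1FA and at 3.17, 0 and 0.50 CPM in mOPC 1FA. Rad51b, which takes part in homologous recombination (chromosome 12, 79297282 to 79814690, plus strand), was captured at 3432, 2853 and 2942 CPM in mESC 1FA and at 150 to 169 CPM in mOPC 1FA. Smyd3, a lysine methyltransferase (chromosome 1, 178951960 to 179518041, minus strand), stood at 3197 to 4168 CPM against 1102 to 1189 CPM, and Gm20388 (chromosome 8, 119910841 to 124345722, plus strand) at 4766 to 5590 CPM against 2309 to 2706 CPM. The junction scaffold Magi1 (chromosome 6, 93675455 to 94283917, minus strand) stood at 2312 to 2497 CPM against 1332 to 1513 CPM. The receptor phosphatase Ptprg (chromosome 14, 11553532 to 12242041, plus strand) stood at 1758 to 2433 CPM against 809 to 1052 CPM. Both cell types captured Auts2, which acts with a Polycomb complex (chromosome 5, 131437333 to 132543344, minus strand), at 2393 to 2597 CPM in mESC 1FA and 3219 to 3958 CPM in mOPC 1FA. The repressor Zbtb20 (chromosome 16, 42875881 to 43642602, plus strand) stood at 1183 to 1552 CPM and 3257 to 3610 CPM. The cell types did not overlap in any of the 12 genes, nor in most of the 161 long genes fitted. The share without overlap over all transcripts was not computed, so this cannot be read as a trait of the long genes. Differences between these libraries were common: with an adjusted p under 0.05 by limma, 3510 of 10007 transcripts rose and 4289 fell in mOPC 1FA. After scaling by TMM factors the difference of Magi1 was −0.22 on the log2 scale (adjusted p = 0.11, limma).

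**Figure D1:**
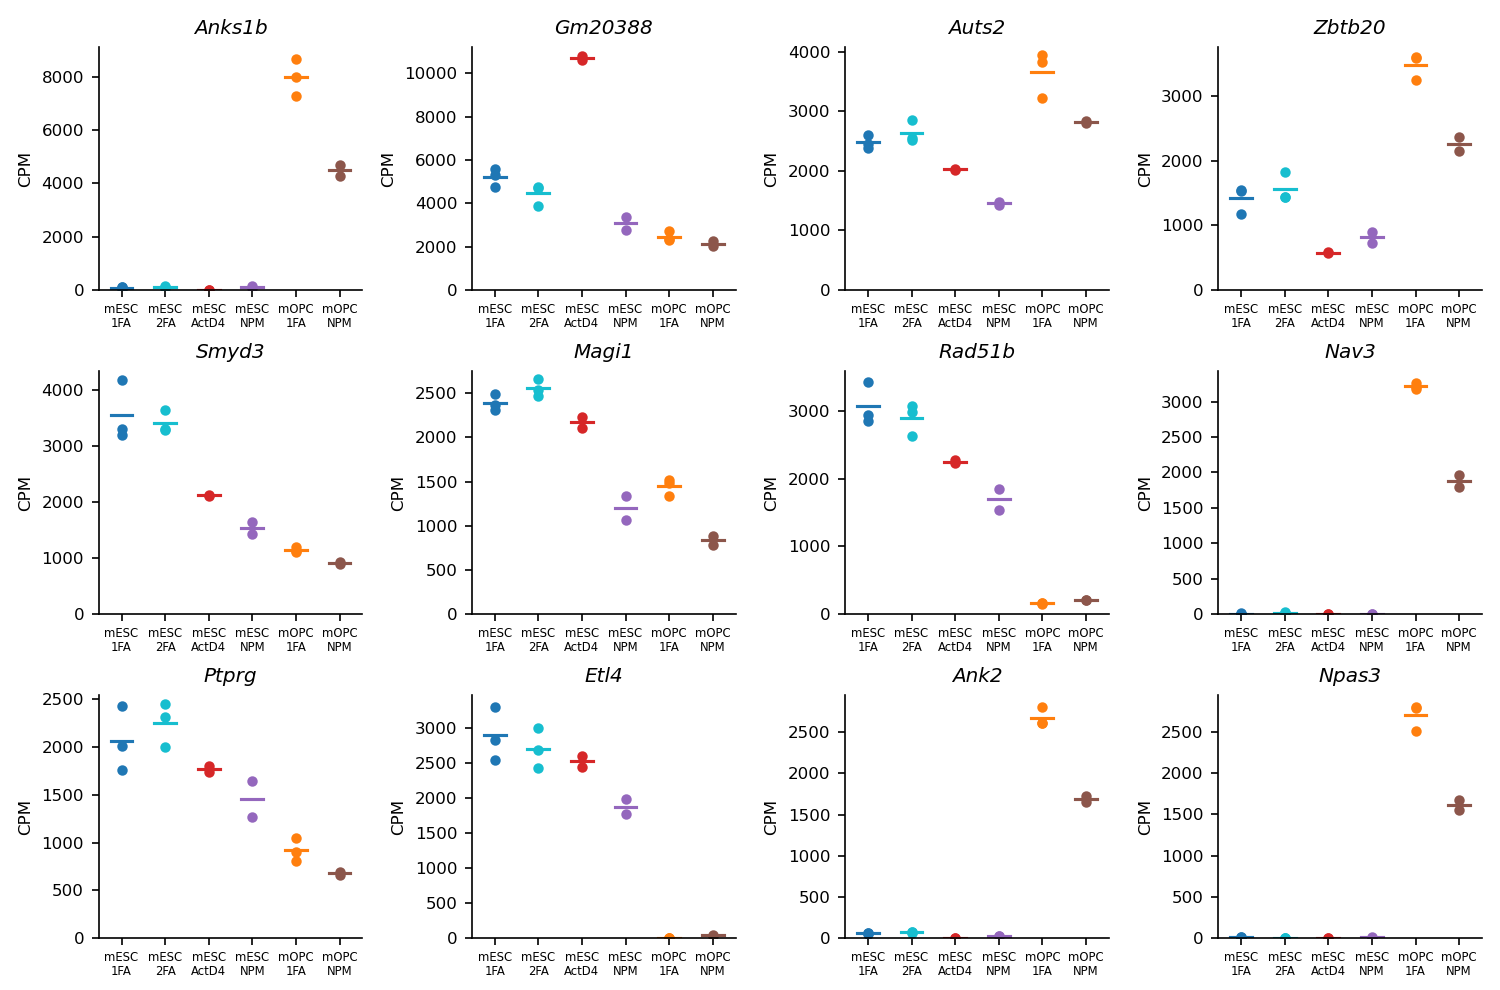
Capture (CPM, linear axis from 0, a separate scale per panel) of the 12 genes with the highest mean capture over the 1FA libraries, in each of the 15 libraries; points are libraries and bars are group means. Anks1b, Nav3, Ank2 and Npas3 are high in both mOPC groups, Etl4 and Rad51b are high in the 4 mESC groups, and Gm20388 exceeds 10000 CPM in both mESC ActD4 libraries.

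Per kb of gene, the order changed. In mESC 1FA the mean capture per kb was highest for Smyd3 (6.28 CPM per kb), Rad51b (5.94) and the sialyltransferase gene St6galnac3 (4.55), and in mOPC 1FA for Anks1b (7.25), Ank2 (4.63) and Zbtb20 (4.55). The median over the 180 genes was 0.0285 CPM per kb in mESC 1FA and 0.281 CPM per kb in mOPC 1FA. Gm20388, first by CPM in mESC 1FA, came to only 1.18 CPM per kb there.

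Together the genes made up 5.44% ± 0.19 of the listed interactions in mESC 1FA libraries and 11.02% ± 0.51 in mOPC 1FA libraries (SD, n = 3). In bulk samples fewer cells that use a gene and less RNA per cell cannot be told apart. At 0 in all libraries of a group were 10 genes in mESC 1FA and 29 in mOPC 1FA. Of the 161 genes with enough interactions to be fitted, 98 were higher and 48 lower in mOPC 1FA, at an adjusted p under 0.05 by limma. Over all 10007 transcripts fitted, 35.1% were higher and 42.9% lower. The filter fixed the direction of the called genes listed at 0 in all libraries of 1 cell type, 18 in the mOPC and 8 in the mESC. Of the 135 genes listed in both, 90 were higher and 30 lower, against 36.5% and 38.4% of 8802 transcripts listed in both. Because the 1FA libraries chose the genes, these counts are a description. Astn2, which controls trafficking of a glial guidance protein, Il1rapl1, a synaptic adhesion receptor, Sema6d, an axon guidance ligand, and the protocadherin gene Pcdh9 were listed at 0 in all mESC 1FA libraries. They stood at 1206 to 1250, 1094 to 1245, 835 to 976 and 630 to 866 CPM in mOPC 1FA. The guidance ligand gene Slit3, the kinase gene Mast4 and the uncharacterised 5730522E02Rik were at 0 in mOPC 1FA. They stood at 486 to 626, 457 to 527 and 185 to 237 CPM in mESC 1FA. Nrg1, a ligand of ErbB receptors, was at 0 in mOPC 1FA and varied among the mESC 1FA libraries, with 74.6, 238 and 272 CPM.

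The NPM libraries, which the choice of genes did not use, gave a test of the difference between the cell types. Of 166 genes tested, 110 were higher and 29 lower in mOPC NPM than in mESC NPM. The background over 10980 transcripts was 27.4% higher and 22.9% lower. The median fitted difference of the 166 genes was 2.52 on the log2 CPM scale, against 0.10 over all transcripts. With 3 interactions put in place of a listed 0 and no TMM factors it was 2.12, beside −0.30 over all transcripts scaled by library totals. Of the genes called, 41 were listed at 0 in mESC NPM and 2 in mOPC NPM. Such genes passed the filter through 1 group alone and had to differ, and their fitted values depend on the prior count. Of the 123 genes listed in both groups, 69 were higher and 27 lower, against 21.5% and 21.4% of 9561 transcripts listed in both. The 14 genes that were not tested were too rare in both groups. Scaled by library totals, the split was 103 higher and 35 lower, against 2308 higher and 3548 lower of the 10980 transcripts. The median of all transcripts moved from 0.10 to −0.30 under that scaling. Leaving out mOPC NPM replicate 1 or 2 reduced the 139 calls to 91 or 89, with the lone library assumed to vary like the others.

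The largest rises were in genes at 0 in mESC NPM. Nlgn1, the postsynaptic partner of neurexins, was captured at 2230 and 1840 CPM in mOPC NPM, and Nav3 at 1966 and 1798 CPM. Grik2, a kainate receptor subunit, stood at 1553 and 1281 CPM, the latrophilin Adgrl3 at 1451 and 1199 CPM, and the adhesion molecule Cadm2 at 1446 and 1058 CPM. The largest falls were in genes listed in both cell types. Etl4 had 39.3 and 34.4 CPM in mOPC NPM against 1772 and 1987 CPM in mESC NPM, a fitted log2 difference of −5.23 ± 0.15 (SE). Nrg1 had 7.07 and 5.88 CPM against 285 and 292 CPM (−4.96 ± 0.23), and Mast4 had 13.4 and 12.6 CPM against 389 and 319 CPM (−4.29 ± 0.20). Enox1, which encodes a cell surface oxidase, fell by 2.84, and Ryr2, a calcium release channel of the endoplasmic reticulum, fell by 2.63. These 10 genes were named only if the groups did not overlap, and for the first 5 the listed 0 had also fixed this. Of the genes captured most in the stem cells, Rad51b was lower in mOPC NPM (−2.59 ± 0.16, adjusted p = 0.00014), while Smyd3 (−0.34 ± 0.17, adjusted p = 0.16) and Gm20388 (−0.10 ± 0.22, adjusted p = 0.72) did not pass the test.

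**Figure D2:**
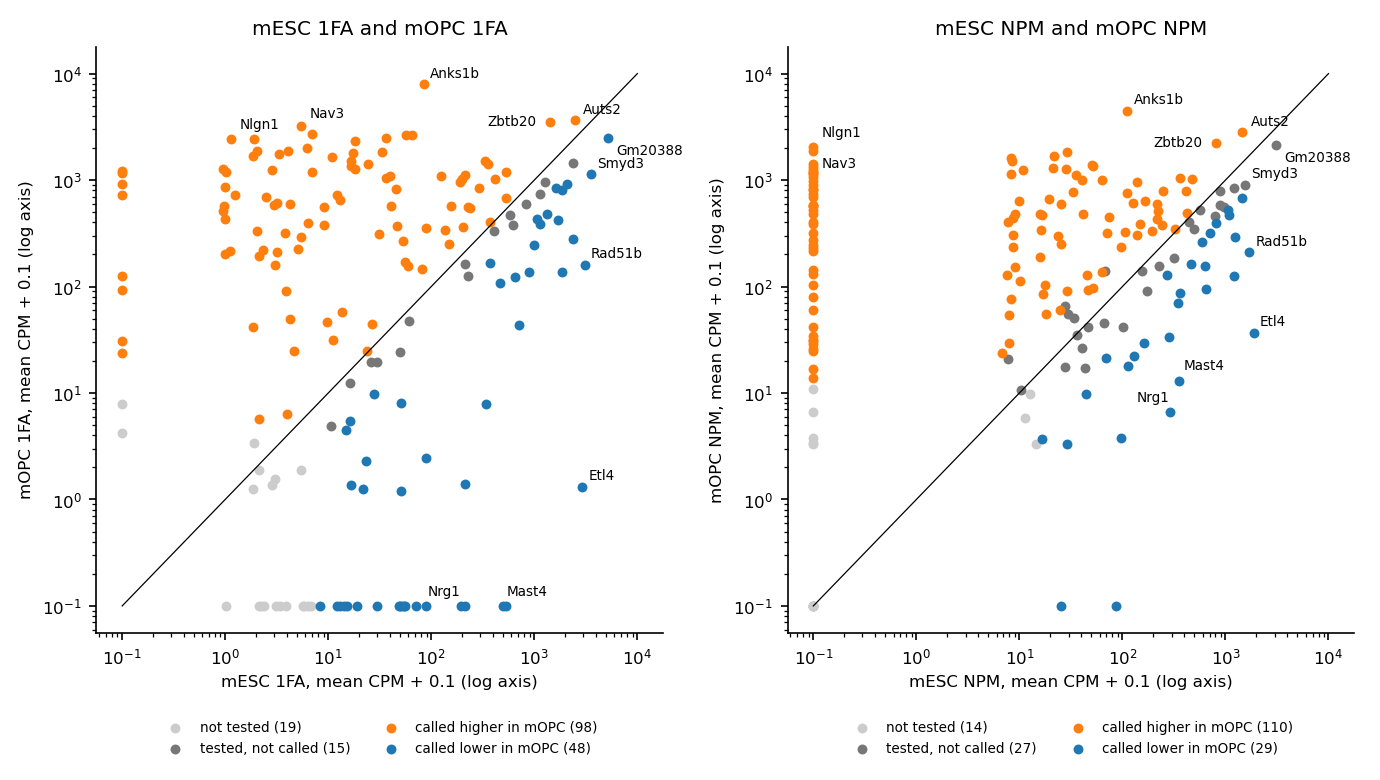
Mean capture of the 180 genes (points) in mESC and mOPC libraries, as CPM + 0.1 on log axes, for 1FA (left) and NPM (right); colours give the limma call and the line marks equal capture. In the NPM panel 110 genes were higher and 29 lower in mOPC, and the points on the left edge are genes listed at 0 in mESC.

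The role lists are described over the genes listed in both cell types, beside the genes of the same list with shorter spans, and no difference between the long and the shorter genes of a list was tested. Of adhesion and synapse genes, 16 of 26 were higher and 5 lower in mOPC NPM, against 12 and 7 of 21 shorter genes. With the genes at 0 in 1 cell type, whose direction the filter fixed, 37 of 47 long genes and 23 of 32 shorter genes were higher. Among them were Dscam (1857 and 1848 CPM against 36.8 and 21.4 CPM), a homophilic recognition molecule, and Nlgn1 and Adgrl3 above. Magi1 (−0.10 ± 0.20) and the teneurin Tenm4 (0.22 ± 0.20) did not pass, and Ptprg was lower (−0.67 ± 0.19, adjusted p = 0.039). Of ion channels and transmitter receptors, 8 of 12 long genes and 12 of 23 shorter genes were higher, and 1 and 7 were lower. Among the long ones was Cacna1c, the pore of an L-type calcium channel, at 1198 and 1331 CPM against 41.4 and 14.8 CPM. Kcnq5, a potassium channel, stood at 1003 and 994 CPM against 59.8 and 65.7 CPM.

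Of the signalling genes, 10 of 16 were higher and 3 lower, against 36 higher and 13 lower of 80 shorter genes. Plcb1, a phospholipase C, stood at 1394 and 1331 CPM against 75.9 and 27.9 CPM. The receptor kinase Erbb4 stood at 1315 and 1059 CPM against 0. It is therefore not among the 16, and the filter fixed its direction. Pard3 (−0.37 ± 0.17), a polarity scaffold, and Dock1 (−0.19 ± 0.16), an activator of Rac, did not pass. Of the transcription and chromatin factors, 8 of 12 were higher and 1 lower, against 37 and 20 of 81 shorter genes. Auts2 rose by 1.37 ± 0.18, Zbtb20 by 1.89 ± 0.19 and the forkhead factor Foxp1 by 2.09 ± 0.15, and Camta1, a calmodulin-binding activator, fell by 0.61. Of the cytoskeleton and matrix genes 4 of 9 were higher and 2 lower, against 25 and 24 of 72 shorter genes. Ank2 stood at 1731 and 1652 CPM against 25.3 and 18.1 CPM.

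Of the enzymes and transport genes 9 of 17 were higher and 4 lower, against 43 and 36 of 135 shorter genes. Rad51b, St6galnac3 (−1.64 ± 0.15) and Immp2l (−0.80 ± 0.18), a mitochondrial peptidase, were lower. Of the shorter RNA-binding genes 10 of 41 were higher and 6 lower. The 3 long RNA-binding genes had the splicing factor Rbfox1 (465 and 345 CPM against 13.8 and 1.64 CPM) and Rbms3 higher, and Adarb2, an ADAR family protein, lower at 4.72 and 2.52 CPM against 18.4 and 14.8 CPM.

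Distance was taken between the RNA tag and the DNA tag of an interaction. The choice of genes used the position of the RNA tag in the 1FA libraries and not the DNA tag, so that distances in these libraries, and comparisons with them, are descriptions. In the 1FA libraries the interactions of the long genes spread far along their own chromosome. In mESC 1FA 44.8% ± 0.97 of them lay at 100 kb to 1 Mb and 3.69% ± 1.2 within 1 kb (SD, n = 3). Of the interactions on the same chromosome (cis), 31.4%, 28.5% and 29.2% lay beyond 1 Mb in the 3 mESC 1FA libraries, and 35.0%, 37.3% and 37.5% in the 3 mOPC 1FA libraries. The means were 29.7% ± 1.5 and 36.6% ± 1.4, and the cell types did not overlap. For protein-coding genes with tags over 100 to 500 kb the means were 15.8% ± 0.64 and 17.7% ± 0.77, and for those with tags over less than 100 kb they were 2.90% ± 0.14 and 5.69% ± 0.42. The DNA tag lay inside the RNA's own gene in 46.2% ± 2.0 of the long genes' interactions in mESC 1FA and 45.1% ± 1.8 in mOPC 1FA. Of contacts at 1 kb to 1 Mb, 56.3% ± 0.25 and 57.8% ± 0.85 lay downstream of the RNA tag. Interactions with other chromosomes (trans) made up 0.341% ± 0.18 and 0.386% ± 0.048.

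**Figure D3:**
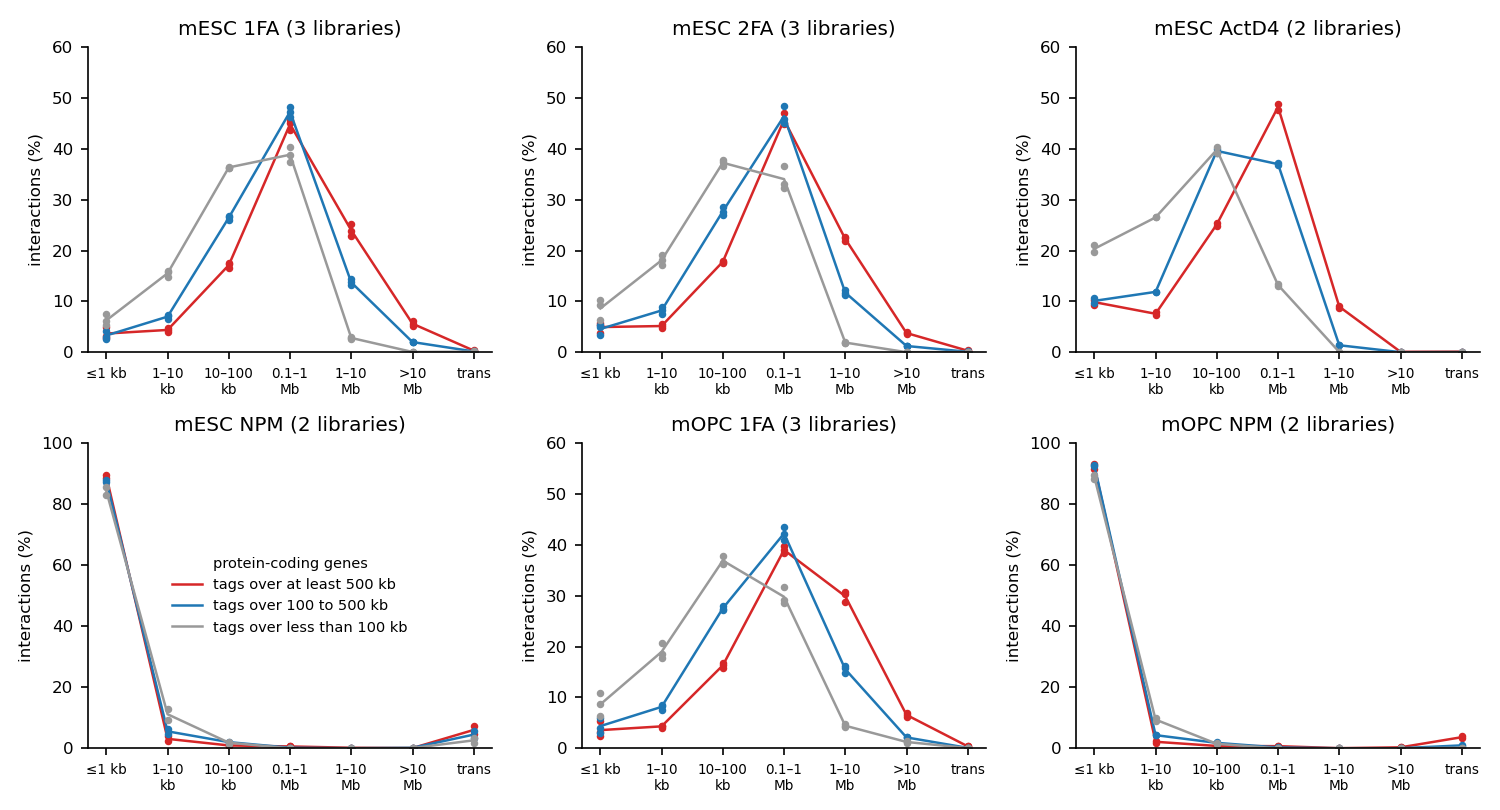
Share of interactions (%, y axis) by distance between RNA and DNA tag (x axis, ending in trans) for the long genes and for 2 classes of shorter protein-coding genes; points are libraries, lines are group means, and the NPM panels run to 100%. In the 1FA, 2FA and ActD4 panels the long genes exceed both shorter classes at 1 to 10 Mb, and in the NPM panels all 3 classes lie mostly within 1 kb.

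These shares pool all interactions and are set by the genes captured most. With each gene weighted equally, 7.34% of cis interactions lay beyond 1 Mb in mESC 1FA and 20.9% in mOPC 1FA, and 28.7% and 10.6% of interactions lay within 1 kb. With each pair of transcript and bin counted once per library, 56.9% and 64.4% of cis pairs lay beyond 1 Mb.

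Reach differed widely between the genes. Of 52 genes with at least 1000 cis interactions pooled over mESC 1FA, Smyd3 had the largest share beyond 1 Mb, 52.4% (50.0% to 54.4% over the libraries), followed by Rad51b (46.1%), St6galnac3 (44.6%) and Etl4 (44.4%). The smallest were Rabgap1l, a regulator of Rab proteins (4.96%), the sugar enzyme gene Gmds (3.53%), the GTPase exchange factor Kalrn (2.08%) and Dmd, which encodes dystrophin (0.51%), and the median was 20.4%. In mOPC 1FA, the 102 such genes had a median of 27.8%. Anks1b (61.0%), the adhesion molecule Lsamp (56.7%), Nkain2 (56.4%), which interacts with the sodium pump, and Grik2 (53.1%) came first. Rad51b (5.04%), the cystine transporter gene Slc7a11 (3.92%), Ptprn2 (2.33%), a phosphatase-like protein of secretory vesicles, and Iqschfp (1.05%) came last. Rad51b thus stood second in mESC 1FA with 24457 interactions and near the end in mOPC 1FA.

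The share beyond 1 Mb went with the number of interactions. The rank correlation across genes was 0.828 over the 52 genes in mESC 1FA and 0.735 over the 102 in mOPC 1FA. With the length of the gene it was 0.018 and 0.335. The genes of 1 cell type share libraries and the significance test that lists pairs, and are not independent. At like numbers, 3000 to 10000 cis interactions, the median share was 20.3% for 17 long genes and 12.4% for 284 genes with tags over 100 to 500 kb in mESC 1FA. In mOPC 1FA it was 31.95% for 49 long genes and 18.2% for 177 of the middle class. Whether the listing of pairs or the length of the gene sets this gap was not tested.

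The cell types were then compared gene by gene in the odds that a cis contact lay beyond 100 kb, for genes with at least 30 cis interactions in every library. Of 73 long genes, 27 had longer and 29 shorter reach in mOPC 1FA, with a median log2 odds difference of 0.00. Over 4263 transcripts 10.1% had longer and 54.3% shorter reach, with a median of −0.55. Cacna1c had 74.99%, 78.2% and 77.3% of cis contacts beyond 100 kb in mOPC 1FA and 28.1%, 20.4% and 17.5% in mESC 1FA (log2 odds difference 3.53 ± 0.19 SE). Adgrl3 rose from 11.9% to 37.9% over the mESC 1FA libraries to 76.7% to 80.3%, and Nkain2 from 27.8% to 50.0% to 82.7% to 85.8%. Of the 11582 interactions of Cacna1c in the 1FA libraries, 11438 were cis interactions of mOPC 1FA. The numbers were 14544 of 14712 for Adgrl3 and 9577 of 9750 for Nkain2. The mESC 1FA shares of these 3 genes thus rest on few interactions. The part of capture in these differences was not tested. Rad51b had 62.8%, 68.5% and 66.0% in mOPC 1FA and 86.4%, 86.5% and 85.8% in mESC 1FA (−1.70 ± 0.12). St6galnac3 (−1.33 ± 0.13) and Elmo1 (−1.28 ± 0.13), an adaptor of Dock1, were also shorter in mOPC 1FA. Elmo1 was also captured less in mOPC 1FA, at 118 to 127 CPM against 560 to 699 CPM in mESC 1FA. Auts2 (−0.32 ± 0.11) and Zbtb20 (−0.35 ± 0.11), both captured more in mOPC 1FA, were shorter there by this measure, whereas their shares beyond 1 Mb were 44.3% and 28.8% in mESC 1FA and 44.9% and 39.0% in mOPC 1FA.

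The amount of fixative was compared in the mESC. With 2% formaldehyde 26.2% ± 0.61 of the long genes' cis interactions lay beyond 1 Mb (SD, n = 3), below the 3 libraries with 1% formaldehyde. In capture, 2 of 148 genes were called higher with 2% formaldehyde and none lower by limma, while 45 had an unadjusted p under 0.05. Over 9837 transcripts 0.0203% were higher and 0.0102% lower. Both genes called, Sema6d (5.80, 5.90 and 5.96 CPM) and Astn2 (4.46, 7.37 and 8.35 CPM), were at 0 in mESC 1FA and rare in mESC 2FA. The filter therefore fixed their direction. Of the 146 genes listed in both groups 0 were called, against 0% higher and 0.0102% lower of 9835 transcripts listed in both. With the replicate number as a block, which pairs these libraries, 32 genes were called, 29 higher and 3 lower, and the background rose to 1.89% higher and 3.00% lower of all transcripts. In reach beyond 100 kb, 1 of 97 genes was longer and 3 were shorter with 2% formaldehyde, against 1.01% and 22.8% of 6164 transcripts, and with the block 11 were called, 1 longer and 10 shorter, against 1.25% and 33% of all transcripts. Nbea, a trafficking scaffold, had 72.2%, 70.4% and 71.9% of cis contacts beyond 100 kb with 1% formaldehyde and 68.1%, 58.2% and 60.7% with 2%. Nrg1 and Gm42416 were also shorter, and Dpp6, a potassium channel subunit, was longer with overlapping libraries. Leaving out 1 library gave 0 to 4 calls in capture, with none once mESC 1FA replicate 1 or mESC 2FA replicate 2 or 3 was dropped and 4 once mESC 2FA replicate 1 was. In reach no call was left when mESC 1FA replicate 1 or mESC 2FA replicate 2 was dropped, 1 when mESC 1FA replicate 3 was, and 13 when mESC 2FA replicate 1 was.

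Most of the long genes were missing from the listed interactions of the cells treated with actinomycin D. In mESC ActD4, 114 of the 180 genes were listed at 0, against 4 in mESC 2FA and 10 in mESC 1FA. Fewer shorter genes were listed there as well. Of 1851 genes with tags over 100 to 500 kb, the mESC ActD4 libraries listed 1198 and 1192. The mESC 2FA libraries listed 1760 to 1780 of them. For the 11043 genes with tags over less than 100 kb the numbers were 6735 and 6702 against 10005 to 10057. The share of the long genes in all interactions was 4.52% ± 0.079 (SD, n = 2), against 5.63% ± 0.26 in mESC 2FA (n = 3). Of 146 genes tested against mESC 2FA, libraries that the choice did not use, 135 were lower and 3 higher. The background over 10163 transcripts was 39.6% lower and 21.2% higher. The median log2 difference was −4.38 against −0.29 over all transcripts. With 3 interactions in place of a listed 0 and no TMM factors it was −1.49, beside −0.14 over all transcripts scaled by library totals. Of the genes called, 80 were at 0 in mESC ActD4, so that passing the filter through mESC 2FA fixed their direction. Of the 66 genes listed in both groups, 55 were lower and 3 higher, against 26.0% and 25.9% of 8290 transcripts listed in both. The mESC ActD4 libraries held 251802 to 418781 interactions and those of mESC 2FA 2035499 to 2515347, and the part of this in the listed zeros was not tested. After both groups were thinned to equal numbers and only pairs with at least 5 interactions were kept, 50 genes were tested, of which 32 were lower and 3 higher, against 15.2% lower and 15.5% higher of 3105 transcripts tested in the thinned data. The 2% formaldehyde of mESC 2FA and the actinomycin D cannot be told apart in this comparison. Against mESC 1FA, 117 of 128 genes were lower and 4 higher, with a background of 40.6% lower and 21.5% higher, which is a description. At 0 in mESC ActD4 were 62 of the genes called, and of the 66 genes listed in both groups 55 were lower and 4 higher, against 27.0% and 26.3% of 8318 transcripts.

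Counted only over genes listed in both groups, falls were found in 11 of 11 adhesion and synapse genes, 12 of 12 enzymes and transport genes, 6 of 8 signalling genes, 6 of 7 transcription and chromatin factors and 5 of 7 cytoskeleton genes. Of ion channels and receptors 3 were left, 2 of them lower, and of RNA-binding genes none. The shorter genes of these lists, counted in the same way, were lower in 7 of 14, 58 of 116, 31 of 66, 30 of 58, 15 of 52, 2 of 9 and 15 of 36. The filter fixed the direction of the genes at 0 in mESC ActD4. With them, 41 of 41 adhesion and synapse genes and 21 of 21 enzymes and transport genes were lower. Of the shorter genes, also with those at 0, 18 of 25 and 79 of 137 were lower. Macrod2, an ADP-ribose hydrolase, fell from 163, 187 and 262 CPM in mESC 2FA to 0 in both mESC ActD4 libraries. Anks1b, Plcb1, the transcription factor Sox5 and Adgrv1, a very large adhesion receptor, fell to 0 from 84.7 to 144, 70.7 to 111, 57.0 to 97.2 and 59.0 to 81.5 CPM. Genes that stayed listed also fell: the glutamate receptor scaffold Grip1 had 38.2 and 31.8 CPM against 253 to 467 CPM (−3.60 ± 0.28), Immp2l 439 and 473 CPM against 1437 to 2011 CPM (−2.03 ± 0.15) and Zbtb20 573 and 580 CPM against 1431 to 1832 CPM (−1.60 ± 0.12).

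The 3 genes that rose were Gm20388, Camta1 and Nav2. Gm20388 stood at 10602 and 10770 CPM in mESC ActD4 against 4770, 4712 and 3892 CPM in mESC 2FA (1.10 ± 0.10, adjusted p = 3.6e-05), with most of its tags inside shorter genes. Camta1 stood at 1860 and 1978 CPM against 954 to 1125 CPM (0.69 ± 0.10). Nav2, a neuron navigator, stood at 1060 and 1168 CPM against 622 to 708 CPM (0.60 ± 0.10), and after thinning it did not pass (0.31, adjusted p = 0.063). A further 8 genes, named here after their values were seen, did not pass. They were Etl4 (−0.26 ± 0.10, adjusted p = 0.055), Ryr2 (−0.47 ± 0.18, adjusted p = 0.054), the chromatin remodeller Chd1, Dock1, Pard3, Lpp, Gm42416 and Rasgef1b.

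**Figure D4:**
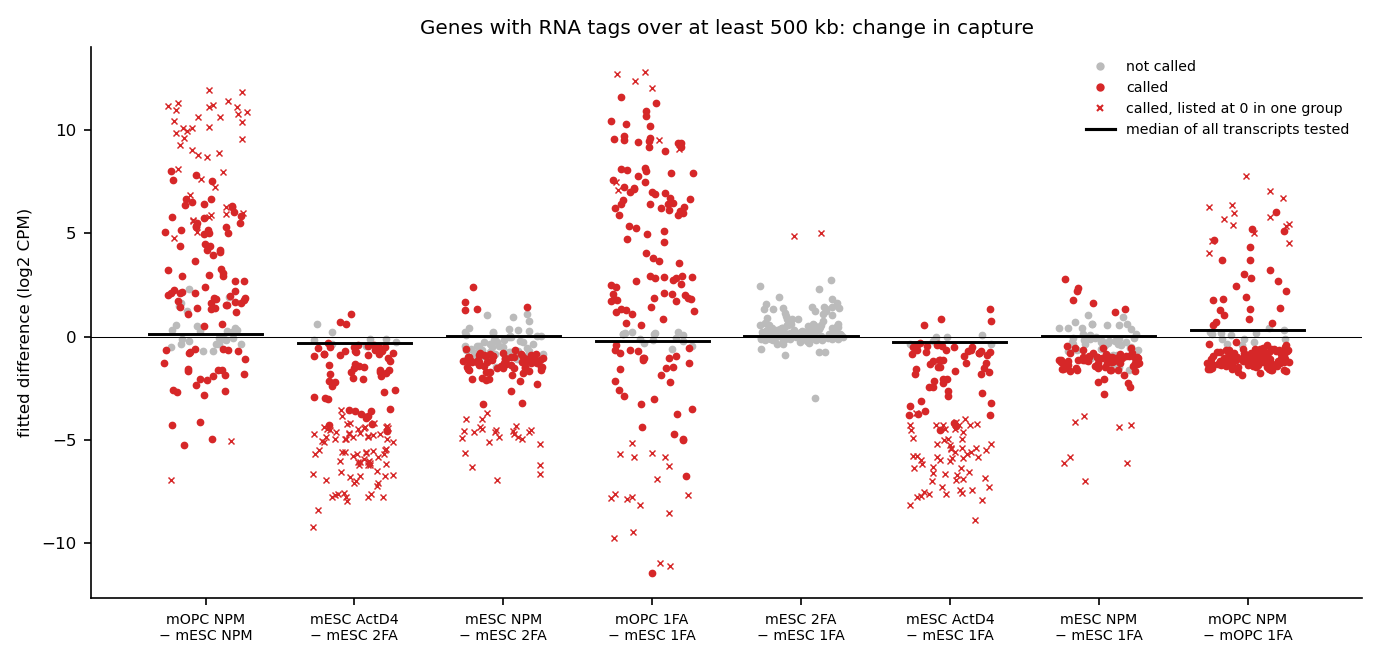
Fitted log2 differences in CPM (y axis) of the long genes in the 8 comparisons of capture (x axis); grey points were not called, red points were called, crosses are genes listed at 0 in 1 of the groups, whose values depend on the prior count, and black bars are medians over all transcripts tested. Most points lie above the bar for mOPC NPM against mESC NPM and below it for both comparisons with mESC ActD4.

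Of what remained listed after actinomycin D, a smaller share lay beyond 1 Mb. Of the long genes' cis interactions in mESC ActD4, 9.27% and 8.89% lay beyond 1 Mb, against 28.5% to 31.4% in mESC 1FA. With each gene weighted equally the shares beyond 1 Mb were 2.26% and 7.34%, and those within 1 kb were 23.7% and 28.7%, against pooled shares within 1 kb of 9.86% and 3.69%. Pooled over interactions, genes with tags over 100 to 500 kb had 1.41% ± 0.020 of cis interactions beyond 1 Mb in mESC ActD4. Those under 100 kb had 0.069% ± 0.010 (SD, n = 2). The DNA tag lay in the RNA's own gene in 75.4% ± 0.061 of the long genes' interactions in mESC ActD4. In reach beyond 100 kb, 37 of 37 long genes tested were shorter than in mESC 1FA and none was longer, as were 96.5% of 1747 transcripts, with 0.172% longer. The median log2 odds difference was −1.44 for the long genes and −1.98 over all transcripts. Foxp1 had 19.8% and 15.8% of cis contacts beyond 100 kb against 66.2%, 66.5% and 67.8% (−3.17 ± 0.19). Chd1, annotated over 67.6 kb but with a tag span of 1690 kb and 17.2% of its tags in Riok2, had 11.7% and 14.9% against 48.7% to 57.0%, and Mast4 had 38.5% and 22.2% against 66.5% to 72.4%. After thinning, 17 of 33 genes were called, 1 of them longer, against 27.5% shorter and 6.52% longer of 690 transcripts, and Mast4 did not pass (−0.91).

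The position of the RNA tags along the gene also shifted. It was measured as the mean position in percent of the annotated gene, from 0 at the 5′ end to 100 at the 3′ end. Of 36 long genes tested in mESC ActD4 against mESC 2FA, 20 moved towards the 5′ end and 6 towards the 3′ end. Over 1720 protein-coding genes, 70.0% moved towards the 5′ end and 2.09% towards the 3′ end. The median shift was −3.25 points of gene length in the long genes and −7.04 points over all genes. Arhgap26 moved from 38.2, 42.1 and 44.8 to 28.9 and 26.7 (−13.9 ± 2.1 points, adjusted p = 0.00011), but only tags inside its annotated 383.1 kb were placed, of a span of 774.7 kb, and most of its tags lay in the second entry of that name. Ryr2 moved from 35.1 to 38.9 to 27.1 and 24.1 (−11.0 ± 1.7) and Vps13b, a lipid transfer protein, from 45.3 to 46.7 to 37.9 and 37.2 (−8.53 ± 1.2). In the other direction, the nuclear receptor gene Rora moved from 36.7, 38.1 and 37.9 to 55.3 and 50.4 (15.3 ± 1.4, adjusted p = 6.1e-06). Mast4 moved by 8.96 ± 1.6 and Zbtb20 by 5.82 ± 1.1 points, but the median position of Mast4 moved by only 1.55 points (adjusted p = 0.45). In each of the 6 genes the groups did not overlap.

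In the NPM libraries most contacts lay at the site of the RNA itself. The loss of protein and the reversal of crosslinks before ligation cannot be told apart there. Within 1 kb lay 89.1% ± 0.59 of the long genes' interactions in mESC NPM and 92.4% ± 1.1 in mOPC NPM (SD, n = 2), and 0.270% ± 0.0027 and 0.377% ± 0.024 of their cis interactions lay beyond 1 Mb. Trans interactions made up 4.69% and 7.35% in the mESC NPM libraries and 3.23% and 4.06% in those of mOPC NPM, above the 0.226% to 0.543% of the 1FA libraries. This order depended on the weighting. With each pair counted once the trans share was 0.680% in 1FA and 6.77% in NPM libraries of the mESC, and 0.971% and 12.4% in those of the mOPC. With each gene weighted equally the mESC had a trans share of 5.12% in 1FA and 4.85% in NPM libraries, and the mOPC one of 4.56% and 1.21%. Pooled over interactions, genes with tags over 100 to 500 kb had a trans share of 4.50% ± 1.8 in mESC NPM and 0.959% ± 0.18 in mOPC NPM. For those under 100 kb the pooled share was 2.62% ± 1.1 and 0.187% ± 0.031. In mOPC NPM, Anks1b alone gave 1929 of the 7417 trans interactions of the long genes, or 17.5% of its own interactions. In mESC NPM, Gm20388 gave the most, 228 of 2355. Of the contacts at 1 kb to 1 Mb, 13.6% ± 2.3 and 13.0% ± 1.0 lay downstream of the RNA tag.

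In capture, the long genes held a smaller share of interactions in mESC NPM than in mESC 2FA, as did genes with tags over 100 to 500 kb. The share of the long genes was 3.69% and 3.58% against 5.47% to 5.93%. For the middle class it was 30.8% and 32.6% against 40.0% to 41.8%. Genes with tags over less than 100 kb held more, 57.5% and 57.6% against 42.7% to 44.8%. Of 152 genes tested in mESC NPM against mESC 2FA, 96 were lower and 5 higher, with a background over 11298 transcripts of 25.7% lower and 21.2% higher. The median log2 difference was −1.09 against 0.03 over all transcripts. Of the genes called, 25 were at 0 in mESC NPM. With 3 interactions in place of a listed 0 and no TMM factors the median of the long genes was −0.52. Scaled by library totals, the median of all transcripts moved to 0.63, so that −0.52 is not to be set against 0.03. Under that scaling 68 genes were lower and 10 higher, against 10.9% and 43.5% of all transcripts. Without mESC 2FA replicate 3 there were 67 calls in all. Of the 127 genes listed in both groups, 71 were lower and 5 higher, against 23.6% and 21.5% of 10927 transcripts listed in both. In the thinned data 39 of 71 genes were lower and 12 higher, against 17.9% and 17% of 5495 transcripts. By role, over genes listed in both groups, 12 of 27 adhesion and synapse genes were lower, against 15 of 22 shorter genes of the list. The counts were 9 of 16 against 49 of 81 for signalling genes, 4 of 12 against 8 of 25 for ion channels and receptors, 13 of 19 against 79 of 136 for enzymes and transport genes, 10 of 12 against 44 of 80 for transcription and chromatin factors, and 7 of 9 against 35 of 71 for cytoskeleton genes. Of 3 RNA-binding genes 0 were lower and 1 was higher, against 22 lower of 41 shorter genes. The differences between long and shorter genes were not tested.

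Ctnnd2, the neural delta-catenin, had 32.1, 30.95 and 48.9 CPM in mESC 2FA and was at 0 in both mESC NPM libraries, as were Adgrl3, the cGMP-dependent kinase Prkg1 and the sarcoglycan Sgcd. Pard3b, a polarity protein, had 13.8 and 3.28 CPM against 38.8 to 55.7 CPM (−3.29 ± 0.47, adjusted p = 0.00022). Of genes captured well in both groups, Smyd3 had 1429 and 1634 CPM against 3277 to 3632 CPM (−1.76 ± 0.18) and Magi1 had 1063 and 1337 CPM against 2471 to 2660 CPM (−1.71 ± 0.18). The 5 genes that rose, named here after their values were seen, were all rare: Adarb2 (1.30 ± 0.41), the complement-domain protein Csmd2 (1.33 ± 0.44), Kcnq5 (1.41 ± 0.42), the adhesion molecule Kirrel3 (1.65 ± 0.50) and Npas3 (2.40 ± 0.76). Kirrel3 rested on unequal libraries, with 80.5 and 19.7 CPM in mESC NPM against 7.13 to 9.54 CPM.

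With the same fixative, mESC NPM against mESC 1FA had 77 of 133 genes lower and 7 higher. The background was 28.4% lower and 24.8% higher. Over genes listed in both groups 69 of 125 were lower and 7 higher, against 26.4% and 25.3% of 11028 transcripts. In mOPC NPM against mOPC 1FA, 112 of 164 were lower and 39 higher, with a background of 23.8% lower and 32.3% higher. Of these rises 15 were in genes at 0 in mOPC 1FA, and of the 149 genes listed in both groups 112 were lower and 24 higher, against 26.0% and 25.5% of 10483 transcripts. Scaled by library totals, the split over all long genes tested became 49 lower and 18 higher in the mESC, against 11.2% and 48.9% of all transcripts. In the mOPC it became 54 lower and 54 higher, against 6.25% and 63.6% of all transcripts. The medians of all transcripts moved from 0.03 to 0.70 and from 0.34 to 1.13. Both comparisons use the libraries that chose the genes and are descriptions. In mESC NPM, Thsd4, an extracellular matrix protein, fell by 2.47, the scaffold Magi2 by 2.23 and the zinc-finger factor Mecom by 2.21. In the mOPC the largest falls included Plcb1, with 1394 and 1331 CPM in mOPC NPM against 2490, 2676 and 2765 CPM in mOPC 1FA (−1.75 ± 0.14). Ntrk3, the neurotrophin receptor TrkC, fell by 1.72, Dmd by 1.66, Foxp1 by 1.64 and Anks1b by 1.62. Scaled by library totals, these 5 differences came to −0.94, −0.90, −0.85, −0.83 and −0.81. Anks1b did not pass with either mOPC NPM library left out (adjusted p = 0.26 and 0.32). The largest rises were in genes at or near 0 in mOPC 1FA. Slit3 stood at 85.6 and 89.9 CPM in mOPC NPM, the calcium channel subunit gene Cacna2d3 at 59.7 and 49.6 CPM and Dpp6 at 40.1 and 43.7 CPM, all 3 at 0 in mOPC 1FA. The adhesion molecule Ntm and the acid-sensing channel Asic2 rose from at most 3.00 CPM to 83.2 to 99.8 CPM. More transcripts were listed in mOPC NPM (14621 and 14628) than in mOPC 1FA (11553 to 11640), and the part of this in the rises was not tested.

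The cell types also differed in where along a gene the RNA of the NPM libraries came from. Of 56 long genes tested, 14 had tags nearer the 3′ end in mOPC NPM than in mESC NPM and 9 nearer the 5′ end, so that 23 were called. Over 3139 protein-coding genes, 2.48% were nearer the 3′ end and 1.43% nearer the 5′ end. Anks1b had a mean position of 79.4 and 80.2 in mOPC NPM and 46.4 and 36.6 in mESC NPM (38.3 ± 2.7 points, adjusted p = 2.9e-06). Its capture was 4293 and 4682 CPM in mOPC NPM and only 154 and 69.0 CPM in mESC NPM, where the means rest on few tags. Dpp6 had 63.3 and 67.7 against 33.8 and 23.0, and Diaph2, a formin that builds actin filaments, had 65.7 and 68.6 against 43.7 and 37.8. Kalrn lay the other way, with 34.5 and 30.8 in mOPC NPM and 64.0 and 73.5 in mESC NPM (−36.1 ± 3.1). Foxp1, with 43.3% of its tags in the 1FA libraries inside Gm20696, had 40.5 and 42.0 against 74.4 and 78.9. Asic2 had 54.9 and 50.6 against 81.1 and 78.5. The groups did not overlap in these 6 genes. With 1 mESC NPM library left out, Diaph2 and Asic2 did not pass without replicate 1 (adjusted p = 0.054 and 0.098), and Dpp6, Diaph2 and Asic2 did not pass without replicate 2 (adjusted p = 0.074, 0.083 and 0.066). The count depended on single libraries. Without mESC NPM replicate 1 or 2 it fell to 13 or 10, and with the median position in place of the mean it was 7.

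**Figure D5:**
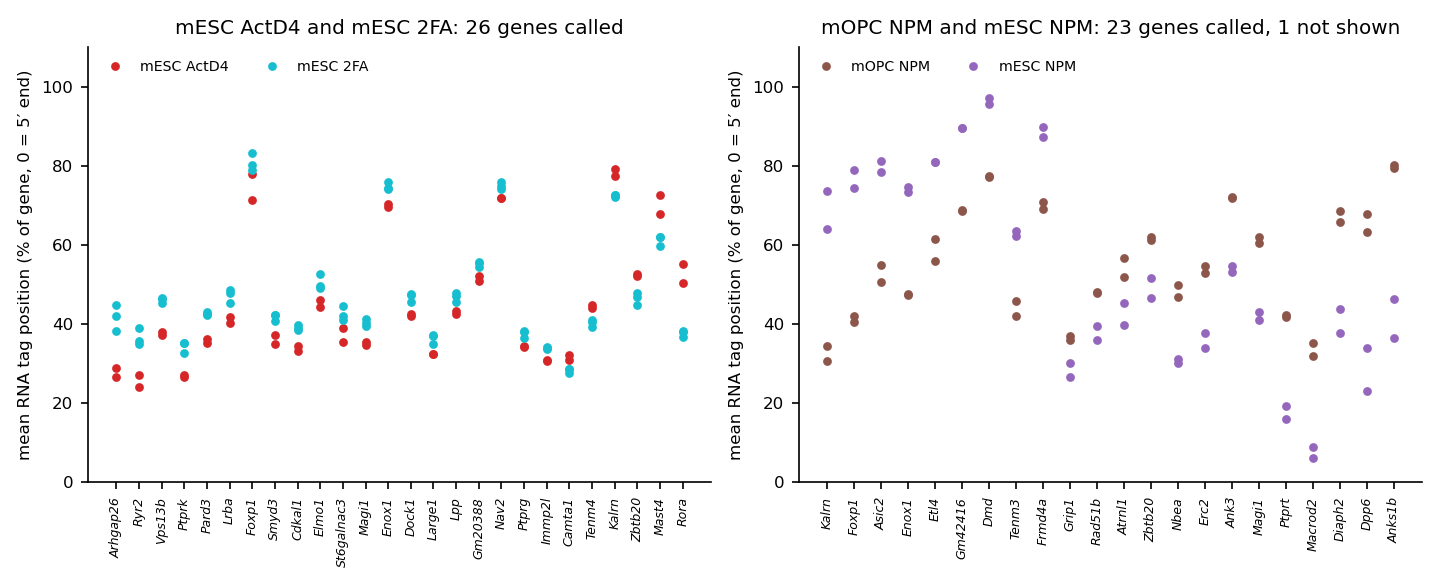
Mean position of RNA tags along the gene (%, y axis, 0 at the 5′ end) for the long genes called in mESC ActD4 against mESC 2FA (left, 26 genes) and in mOPC NPM against mESC NPM (right, 23 genes, 1 of them not shown); points are libraries, ordered by the size of the shift. On the left 20 genes moved towards the 5′ end, and on the right the gaps reach 38.3 points for Anks1b and −36.1 points for Kalrn.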

How the data were processed

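The authors extracted RNA and DNA tags with TagDust2, removed ribosomal RNA with RNAdust and PCR duplicates with FastUniq, and aligned both tags to mm10 with BWA (0.7.15-r1140), keeping mapping quality 37. RNA tags were assigned to GENCODE M14 by strand and DNA was divided into 25-kb bins. A one-sided binomial test on pooled replicates kept pairs at an adjusted p below 0.05. The deposited files give tag positions and, for each pair, the deposited p-value and adjusted p-value, which were not tested further. Base calling with CASAVA 1.8 is named in the submitters' processing notes.

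Here, lines of the same interaction were merged and interactions counted per transcript and library. Since no deposited column holds counts, the test was limma 3.58.1 (R 4.3.3) on log2 CPM scaled by TMM factors coded for this purpose. The prior count was 0.5 and the fit had an intensity trend. Transcripts needed the CPM equivalent of 10 interactions in as many libraries as the smaller group holds, and 15 interactions in all. Tests were two-sided, with Benjamini-Hochberg adjustment over all transcripts tested, and the scripts were checked on simulated data. Reach was fitted as log2 odds with 0.5 added, and position as percent of the gene. Gene symbols and positions came from GENCODE M21 and RefSeq, and 283 transcripts had no symbol there.

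The genes named are the 12 with the largest mean CPM in the 1FA libraries, and, for each comparison of capture, the 5 largest rises and falls among genes called, with at least 50 interactions per library in 1 group and no overlap. Added are the 3 largest shifts each way for reach and position, the 3 genes on each side of the span bound, the 4 highest and lowest shares beyond 1 Mb, genes inside other genes, and the most captured of each role list. The genes and lists were chosen with earlier results of these data known. Replicate numbers paired mESC 1FA with mESC 2FA, where same-numbered libraries deviated together (r = 0.355, 0.183 and 0.323), and no other groups. The span over the 1st to 99th percentile of tags, other scalings, filters and prior counts, thinned data and each library left out were tried as alternatives. The p-values measure the spread between libraries only. The values of 1 gene are not reported here, although it stays in all counts.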

Additional observations from a re-analysis of the deposited data

Results flagged for a closer look

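For 13 of the 126 long genes fitted in both cell types, capture in NPM against 1FA libraries differed in opposite directions in the mESC and the mOPC, with every NPM library below every 1FA library in the mESC and above it in the mOPC, or the reverse. The share is 10.3%, against 1.68% of 9510 transcripts fitted in both. The difference between the cell types was not tested for any of them, and the 1FA libraries chose the genes, so that these values are descriptions. Of these, 8 are named in the report, each with a fall in the mESC and a rise in the mOPC on the log2 CPM scale. The values were −1.38 and 5.79 for 5730522E02Rik, −0.96 and 5.19 for Asic2, −1.29 and 4.70 for Etl4, −1.15 and 5.03 for Mast4, −0.92 and 1.38 for Ryr2, −5.83 and 1.77 for Sgcd, −1.21 and 7.75 for Slit3, and −2.47 and 2.21 for Thsd4. Slit3, Mast4 and 5730522E02Rik were listed at 0 in mOPC 1FA and Sgcd at 0 in mESC NPM, and Etl4 and Asic2 had 8 interactions each over the 3 mOPC 1FA libraries, so that these values depend on the prior count. For the 4 genes at 0 the filter also fixed the direction and the lack of overlap in that cell type. With a prior count of 2 the rises in the mOPC came to 5.77 for Slit3, 3.16 for Mast4, 3.86 for 5730522E02Rik, 3.65 for Etl4 and 4.62 for Asic2, and the fall of Sgcd in the mESC to −3.91. Scaled by library totals, the falls in the mESC were −0.62 for Etl4, −0.48 for Mast4, −0.54 for Slit3, −0.71 for 5730522E02Rik and −1.82 for Thsd4, and those of Asic2 (−0.29, adjusted p = 0.096) and Ryr2 (−0.25, adjusted p = 0.12) did not pass, while the rises in the mOPC became larger, from 2.18 for Ryr2 to 8.28 for Slit3. The median of all transcripts moved from 0.03 to 0.70 in the mESC under that scaling. The mOPC NPM capture of the 8 genes was low, from 12.6 CPM for Mast4 to 99.8 CPM for Asic2.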

How the results depend on the processing

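The files list significant pairs only, so depth cannot be read from them, and the part of library size in the calls was not tested. After thinning to equal numbers with pairs of at least 5 interactions, mESC ActD4 against mESC 2FA gave 35 calls and against mESC 1FA 31, mESC NPM against mESC 2FA 51 and against mESC 1FA 47, with fewer genes tested. Against mESC 1FA, 28 of 45 long genes were lower and 3 higher in mESC ActD4, beside 16.2% and 14.3% of 2672 transcripts. In mESC NPM, 34 of 65 were lower and 13 higher than in mESC 1FA, beside 20.3% and 20% of 5013 transcripts. Thinned reach gave 2 calls for mESC 2FA and 17 for mESC ActD4 against mESC 1FA. For mESC 2FA against mESC 1FA, capture without a low-count filter gave 23 calls and with the replicate block 32, and reach gave 16 beyond 1 Mb and 11 with the replicate block. Position in mOPC NPM against mESC NPM gave 7 calls with the median position and 12 with at least 100 interactions. The cause was not tested.

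With 1 library left out, calls in capture ranged from 89 to 131 for mOPC NPM against mESC NPM, 100 to 153 and 94 to 132 for mESC ActD4 against mESC 2FA and 1FA, 67 to 114 and 66 to 95 for mESC NPM against the same, 146 to 152 for mOPC 1FA against mESC 1FA, 115 to 148 for mOPC NPM against mOPC 1FA and 0 to 4 for mESC 2FA against mESC 1FA. In reach they ranged from 50 to 56, 0 to 13 and 36 to 41 for mOPC 1FA, mESC 2FA and mESC ActD4 against mESC 1FA, and in position from 24 to 31 for mESC ActD4 and 10 to 26 for mOPC NPM.

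In the other comparisons the samples share only a replicate number. The replicate block moved no other count by over 1.5 times, with 144 calls for mOPC NPM against mESC NPM, 103 for mESC ActD4 and 72 for mESC NPM against mESC 2FA. It leaves out the unmatched library where the groups differ in size. In mOPC 1FA against mESC 1FA, replicates 2 and 3 of mOPC 1FA each correlated better with another number than with their own.

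Shares within 1 kb with each gene weighted equally were 28.68%, 33.52%, 23.66%, 89.91%, 10.63% and 94.44% in the mESC (1FA, 2FA, ActD4 and NPM) and the mOPC (1FA and NPM). With each pair counted once they were 3.312% in mESC ActD4, 92.74% in mESC NPM, 0.487% in mOPC 1FA and 86.03% in mOPC NPM. Cis shares beyond 1 Mb with equal weights were 7.341%, 6.003%, 2.26%, 0.06254%, 20.9% and 0.1255% in the same order. With each pair counted once they were 56.86% in mESC 1FA, 50.22% in mESC 2FA, 0.2125% in mESC NPM, 64.42% in mOPC 1FA and 1.561% in mOPC NPM. Trans shares with equal weights were 5.123% in mESC 1FA, 2.432% in mESC 2FA, 0.05931% in mESC ActD4, 4.558% in mOPC 1FA and 1.206% in mOPC NPM. With each pair counted once they were 0.6803%, 0.7499%, 0.2571%, 0.971% and 12.45% in the same groups. The cause was not tested.

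Scaling by totals in place of TMM moved the median of all transcripts from −0.20 to −0.71 in mOPC 1FA against mESC 1FA, and from −0.29 to −0.14 and −0.11 in mESC ActD4 against mESC 2FA and 1FA. Over all transcripts it turned 3009 higher and 2512 lower calls into 2308 and 3548 for mOPC NPM against mESC NPM, 3510 and 4289 into 2600 and 5450 for mOPC 1FA against mESC 1FA, 2391 and 2909 into 4915 and 1236 for mESC NPM against mESC 2FA, 2831 and 3243 into 5577 and 1278 for mESC NPM against mESC 1FA, and 3748 and 2752 into 7369 and 724 for mOPC NPM against mOPC 1FA. With only the genes annotated over 500 kb, an alternative chosen after seeing the data, mOPC NPM against mESC NPM gave 131 calls, mESC ActD4 against mESC 2FA 130 and mESC NPM against mESC 2FA 95. By the 1st to 99th percentile of tags 163 genes qualified. Of 108 alternatives for the counts and shares, libraries left out apart, 43 moved. Of 739 alternatives for named genes 704 kept direction and call, 35 lost the call and 0 reversed.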
